A study of Homo sapiens with 3 samples.

Results

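The genes examined were 9 transcription factors of epithelial to mesenchymal transition (EMT), namely SNAI1, SNAI2, SNAI3, ZEB1, ZEB2, TWIST1, TWIST2, PRRX1 and TCF3, out of 20163 annotated protein-coding genes. They were taken by name, and an ETS1 peak was counted for a gene if its midpoint fell in the gene body or within 100 kb of either end. By this rule 36 of the 26961 nuclear ETS1 peaks belonged to the EMT factors. The peaks came from chromatin immunoprecipitation and sequencing (ChIP-Seq) of ETS1 in SCC25, an established line of oral cancer cells that derives from a tongue tumour of squamous origin. The cells were untreated, and chromatin was precipitated in 3 samples with antibodies against ETS1, of which C20 served for 2 and 501A for 1, and a merged input was the control. The deposited list is the consensus of the 3 samples, with the position of each peak and no height, score or value per sample, so that no spread between samples could be computed and no difference was tested. Values for the EMT factors are therefore set beside those of all protein-coding genes or all peaks, and 95% Wilson intervals cover the counting of peaks only. Read numbers are stated for the study only as a range over samples, and the list itself carries no depth. SCC25 is a single cell line, and the list does not say which of these genes the cells transcribe.

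In EMT, epithelial cells lose cell junctions and polarity and take on a motile, mesenchymal state, a change used in development and wound repair and by invading carcinoma cells. The program is run by a small set of DNA-binding proteins. SNAI1, SNAI2 (Slug) and SNAI3 are zinc finger repressors of the SNAIL family, and ZEB1 and ZEB2 are zinc finger and homeodomain repressors. TWIST1 and TWIST2 are basic helix-loop-helix (bHLH) factors, which bind DNA as dimers with E-proteins such as TCF3 (E2A), and PRRX1 is a paired-related homeodomain factor. SNAIL, ZEB and bHLH proteins recognise E-boxes, best known from the promoter of the E-cadherin gene, which SNAIL and ZEB proteins repress. ETS1 itself binds sequences around a GGAA core.

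Sequence under the peaks was read from GRCh37, the nuclear sequence of hg19, to show the ETS cores that the peaks contain. A core was taken as GGAA with A or C before it and A or G after it, on either strand. For peaks at TWIST1, TCF3, ZEB1, TWIST2 and SNAI3, and for the intergenic peaks of SNAI1, the stretch of 100 bases with most cores that kept 40 bases clear of the exons of protein-coding genes is printed 5′ to 3′ on the strand of the gene, with the cores in capitals. The TWIST1 stretch (chr7:19157345-19157444, minus strand) ends 86 bp upstream of the canonical transcription start site (TSS) and holds 3 cores, of which a pair on opposite strands is separated by 1 base. The TCF3 stretch (chr19:1652867-1652966, minus strand) ends 253 bp upstream of its TSS, and that of ZEB1 (chr10:31607157-31607256, plus strand) lies 889 bp upstream of the canonical TSS in the gene of the antisense transcript ZEB1-AS1. For TWIST2 the first stretch (chr2:239757464-239757563, plus strand) lies inside the gene, 738 bp downstream of the canonical TSS, and the second (chr2:239773461-239773560, plus strand) in intron 1. The SNAI3 stretch (chr16:88751799-88751898, minus strand) is also intragenic. Those of SNAI1 are upstream (chr20:48586493-48586592, plus strand) and downstream (chr20:48636597-48636696, plus strand) of the gene. The stretches of TWIST1, ZEB1 and SNAI3 and the first of TWIST2 lie outside the 600 bp around the midpoint of their peak.
TWIST1 promoter: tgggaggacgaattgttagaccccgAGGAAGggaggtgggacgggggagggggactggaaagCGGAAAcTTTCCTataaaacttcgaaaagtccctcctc
TCF3 promoter: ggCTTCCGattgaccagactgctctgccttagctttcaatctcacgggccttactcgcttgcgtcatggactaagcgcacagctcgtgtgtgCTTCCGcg
ZEB1 promoter: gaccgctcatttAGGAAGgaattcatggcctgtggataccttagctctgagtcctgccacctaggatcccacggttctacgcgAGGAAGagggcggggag
TWIST2 start of the gene: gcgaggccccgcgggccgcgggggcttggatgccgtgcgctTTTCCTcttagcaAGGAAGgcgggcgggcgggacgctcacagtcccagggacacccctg
TWIST2 intron: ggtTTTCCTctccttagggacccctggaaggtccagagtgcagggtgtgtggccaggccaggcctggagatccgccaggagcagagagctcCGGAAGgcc
SNAI3 intragenic: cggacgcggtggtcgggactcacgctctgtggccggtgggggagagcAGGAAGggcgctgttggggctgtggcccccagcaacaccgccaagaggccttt
SNAI1 upstream: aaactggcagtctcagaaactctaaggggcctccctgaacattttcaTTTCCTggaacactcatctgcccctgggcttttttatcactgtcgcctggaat
SNAI1 downstream: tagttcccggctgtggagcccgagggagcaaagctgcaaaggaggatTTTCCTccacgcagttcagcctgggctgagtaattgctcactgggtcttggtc
In the ZEB2 peak no core was found that far from coding exons. A core is a match of 6 letters, and 94.6% of promoters of protein-coding genes (18815 of 19881, each 1001 bp around the canonical TSS) held at least 1, so these letters describe the peaks and do not show where ETS1 was bound.

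A peak was found at the start of 6 of the 9 EMT factors. SNAI2, ZEB1, ZEB2, TWIST1, TWIST2 and TCF3 each had a peak midpoint within 500 bp of an annotated TSS, while SNAI1, SNAI3 and PRRX1 had none. Among all protein-coding genes 53.1% had such a peak, so that 6 of 9 is close to the level of genes in general. With the canonical TSS alone, 5 of 9 EMT factors had a peak against 46.1% of genes, because the ZEB2 peak lies at alternative starts. A midpoint fell in the gene body of 6 of 9 EMT factors against 53.4% of genes, and within the body or 100 kb of it for 8 of 9 against 87.5%. PRRX1 was the gene without any.

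The number of peaks differed widely between the EMT factors. SNAI3 had 14 peaks, SNAI2 had 6, TWIST2 had 4, SNAI1 and TCF3 had 3 each, ZEB1, ZEB2 and TWIST1 had 2 each and PRRX1 had 0. Within 50 kb SNAI3 had 8 and TCF3 and ZEB1 had 1 each, so that these counts depend on the window. Since the gene bodies range from 4.14 kb (SNAI2) to 211.3 kb (ZEB1), peaks were also expressed per 100 kb of window. The density was 6.70 at SNAI3, above that of 95.1% of protein-coding genes, and 2.94 at SNAI2, above 70.7%. It was 1.46 at SNAI1, 1.45 at TWIST2 and 1.23 at TCF3, near the median of 1.6 for all protein-coding genes. At TWIST1 (0.674), ZEB2 (0.561) and ZEB1 (0.486) the density was above that of only 26.7%, 25% and 22.7% of genes. The median over the 9 EMT factors was 1.23 peaks per 100 kb. The plot of density shows this spread, from PRRX1 at 0 to SNAI3 in the upper tail.

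**Figure D1:**
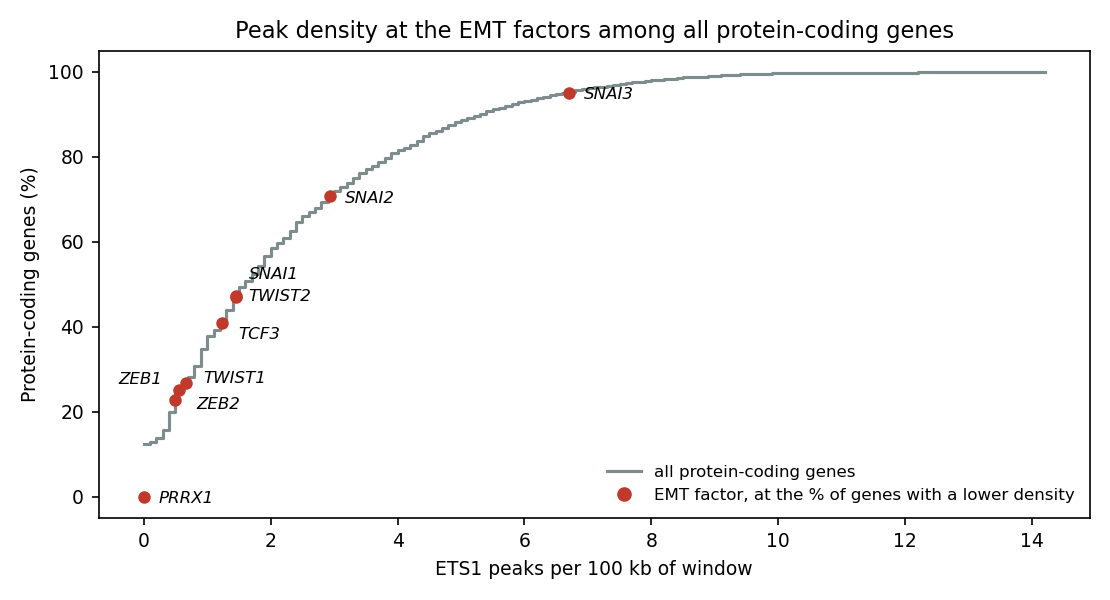
Number of ETS1 peaks per 100 kb of window (horizontal axis) against the percentage of protein-coding genes (vertical axis); the grey step is the cumulative share of the 20163 genes, and each red point stands at the percentage of genes with a lower density than that EMT factor. SNAI3 (6.70) and SNAI2 (2.94) lie above the median of 1.6, and the other 7 lie below it.

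By position, 14 of the 36 peaks were at a TSS of some gene (38.9%, 95% Wilson interval 24.8 to 55.1%), against 43.3% of all nuclear peaks. Of these 14, 6 were at the EMT factors themselves and 8 at other genes of the windows. Intergenic peaks numbered 12 (33.3%, interval 20.2 to 49.7%) against 20.6% of all peaks, and 9 lay in introns (25%, interval 13.8 to 41.1%) against 31.4%. The remaining 1 was counted in an exon (2.78%, interval 0.492 to 14.2%) against 4.65%. It lay in an exon of the antisense gene SNAI3-AS1 and in an intron of SNAI3, and the figures draw it as an intron peak of SNAI3. The interval of each share includes the value of all peaks, for the intergenic peaks by a narrow margin, since the lower bound of 20.2% is just under 20.6%. Peaks of the same locus are not independent of each other. Of the 12 intergenic peaks, 5 were at SNAI2, 3 at SNAI3, 2 at TWIST2 and 2 at SNAI1, as the map of the loci shows.

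**Figure D2:**
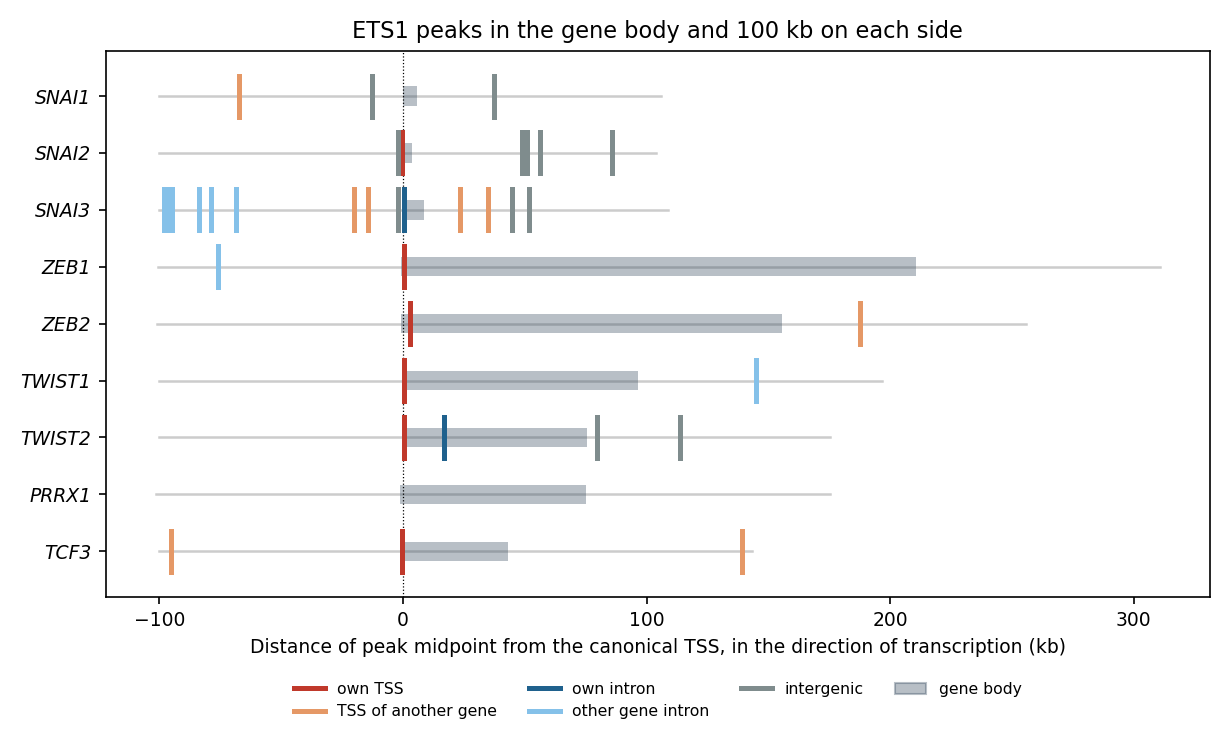
Midpoints of the 36 ETS1 peaks at the 9 genes (vertical ticks, coloured by position) against distance from the canonical TSS in kb, positive in the direction of transcription; the dark bar is the gene body and the grey line the window of 100 kb on each side. Of the genes drawn, 6 have a red tick at one of their own starts, SNAI2 has a group of 4 intergenic ticks beyond its 3′ end, and PRRX1 has no tick.

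SNAI2 encodes Slug, a repressor of E-cadherin that is also active in basal keratinocytes and migrating cells. It is a short gene of chromosome 8 (minus strand, 49830157 to 49834299). Its promoter peak, 1004 bp wide from 49833706 to 49834709, covered all 3 annotated TSSs, and its midpoint was 219 bp from the canonical TSS. A second peak of 560 bp from 49835857 to 49836416 lay 1837 bp upstream of the nearest TSS. The other 4 were downstream of the gene, at 48.8 to 85.7 kb from the nearest SNAI2 TSS, namely from 49784645 to 49785710, from 49782484 to 49783510, from 49777352 to 49778360 and from 49747873 to 49748741. These distal peaks were 869 to 1066 bp wide and lay between genes, and no other protein-coding gene has a TSS in the window. All 6 peaks fell in super-enhancers (SEs, long stretches with the most H3K27Ac, a mark of active enhancers) as the authors called them, with 2 SEs involved. SNAI2 was also the EMT factor with the richest promoter peak in ETS cores for its width, with 8 cores or 7.97 per kb, above 94.1% of all nuclear peaks. In this promoter peak 1 core lay in the 200 bp around the midpoint and 5 in the 600 bp around it. The peak centred 50991 bp from the TSS was close behind with 8 cores or 7.79 per kb, above 93.6%.

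SNAI1 (Snail), the founding EMT repressor of the family, lacked a peak in its gene body and at its single TSS. The gene lies on the plus strand of chromosome 20 from 48599517 to 48605423. The nearest peak, 410 bp wide from 48586421 to 48586830, was intergenic and 12892 bp upstream. Another of 843 bp, from 48636327 to 48637169, lay 37231 bp downstream, and the third, 1492 bp wide from 48531362 to 48532853, was 41 bp from the TSS of SPATA2. None of the 3 fell in an SE. A further 11 peaks lay between 100 and 200 kb from SNAI1, the largest gain among the 9 genes over that step. Of these, 10 were downstream and 8 of the 10 fell in SEs. At a TSS were 5 of the 11, all of other genes, since SNAI1 has a single TSS. Which gene the peaks in SEs act on was not tested.

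SNAI3, a less studied member of the SNAIL family, had the most peaks, and most of them belonged to its neighbours. Its body on chromosome 16 spans 88744096 to 88752915 on the minus strand. Of the 14 peaks, 4 were at the TSSs of CYBA, MVD, RNF166 and CTU2, and 6 were in introns of PIEZO1, which encodes a mechanosensitive channel. These 6 peaks fell in an SE. The widest of them, 3022 bp from 88849555 to 88852576, covered a PIEZO1 TSS. Its midpoint was 563 bp from that TSS, and it was therefore counted in the intron. Besides SNAI3, the window holds the TSSs of 7 protein-coding genes. At SNAI3 itself, a peak 2193 bp wide from 88751209 to 88753401 covered the single TSS, but its midpoint was 610 bp inside the gene, in intron 1 and in an exon of the antisense gene SNAI3-AS1. It was therefore not counted at the TSS by the limit of 500 bp. A peak of 894 bp from 88754378 to 88755271 lay 1909 bp upstream. The other intergenic peaks, from 88700040 to 88702105 and from 88707771 to 88708116, were nearest to IL17C. Their midpoints were 3908 and 2944 bp from its TSS, and 51843 and 44972 bp from that of SNAI3. Without the window of SNAI3, a setting added after the values were seen, 22 peaks were left for the other 8 genes.

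ZEB1 and ZEB2, the repressors that keep microRNAs of the miR-200 family and E-cadherin low in mesenchymal cells, each had a single peak at the gene itself despite their length. ZEB1 spans 211.3 kb of the plus strand of chromosome 10, from 31607424 to 31818742. Its promoter peak was 3014 bp wide, from 31607084 to 31610097, wider than 97.4% of all nuclear peaks. This peak covered the canonical TSS at 31608145 and 15 of the 21 annotated ZEB1 TSSs in all. Its midpoint was 30 bp from a TSS of ZEB1-AS1, which is transcribed in the opposite direction, so that the starts of ZEB1 and of the antisense transcript cannot be told apart as its target. The peak held 10 ETS cores, 3.32 per kb, above 44.8% of all nuclear peaks. No other midpoint fell in the ZEB1 gene body, and the second peak, 360 bp wide from 31531896 to 31532255, was 75349 bp upstream.

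ZEB2 is 156.7 kb long (chromosome 2, minus strand, 145121931 to 145278624) and has 46 annotated TSSs. Its peak of 1169 bp, from 145274072 to 145275240, lay in intron 2 of the canonical transcript, 3030 bp downstream of the canonical TSS at 145277686. It covered 6 alternative TSSs, the nearest 328 bp from the midpoint, and held 3 cores, 2.57 per kb, above 29.5% of all nuclear peaks. The remaining peak, 1392 bp wide from 145089273 to 145090664, was 111 bp from a TSS of GTDC1. With many TSSs in a gene a peak is more readily counted at one of them, and the median number for a protein-coding gene was 5.

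Both TWIST genes, bHLH factors of mesoderm that drive EMT in carcinoma cells, had a wide peak over the start. At TWIST1 (chromosome 7, minus strand, 19060614 to 19157259) the peak of 2251 bp from 19155808 to 19158058 covered its 3 annotated TSSs and held 14 cores, 6.22 per kb, above 85.7% of all peaks. Only 1 of the 14 cores lay in the 600 bp around the midpoint. The sequence printed for TWIST1 comes from this peak. The other TWIST1 peak, 373 bp wide from 19012125 to 19012497, was in an intron of HDAC9, and it was among the 3 of the 36 that held no core. It lay 144236 bp downstream of the nearest TWIST1 TSS, in the window because that is measured from the ends of the gene body. At TWIST2 (chromosome 2, plus strand, 239756673 to 239832230) the peak of 2023 bp from 239756048 to 239758070 likewise covered 3 of 3 TSSs, with 7 cores, 3.46 per kb, above 47.7% of all peaks. TWIST2 had a further peak of 1448 bp in intron 1, from 239772696 to 239774143 and 16562 bp from the nearest TSS. Beyond its 3′ end were intergenic peaks of 1030 bp (239835817 to 239836846) and 1175 bp (239869673 to 239870847). No other protein-coding gene has a TSS in the TWIST2 window, and none of the TWIST peaks fell in an SE. The TWIST2 gene model is only partly carried over to GRCh37 in the annotation, so that its TSSs may be incomplete.

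TCF3 encodes the E-proteins E12 and E47, partners of the TWIST proteins that also repress E-cadherin. It occupies 1609290 to 1652614 of chromosome 19 and is transcribed from the minus strand. Its peak was 868 bp wide, from 1652639 to 1653506, and did not touch the gene, since it began 25 bp upstream of the canonical TSS and its midpoint was 458 bp upstream. It held 3 cores (3.46 per kb, above 47.6% of all nuclear peaks), a pair of which stand in the sequence printed above. The other peaks of the window were 16 bp from a TSS of ADAMTSL5 (1499 bp wide, 1512822 to 1514320) and 425 bp from the TSS of the transcript ENSG00000267073 (2932 bp wide, 1746165 to 1749096). Although the TCF3 window holds the TSSs of 6 other protein-coding genes, only ADAMTSL5 among them had a peak at its TSS.

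PRRX1, a mesenchymal homeodomain factor that induces EMT with TWIST1, had no peak in its body (chromosome 1, plus strand, 170631869 to 170708562) or within 100 kb. The nearest, 1071 bp wide from 170500806 to 170501876, was 130528 bp upstream of the first PRRX1 TSS and 10 bp from a TSS of GORAB, a Golgi protein gene. The nearest peak was closer for 88.7% of protein-coding genes, with a median distance of 0.365 kb. Absence from the list says that no reproducible peak was called, and binding under the limit of detection was not tested.

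**Figure D3:**
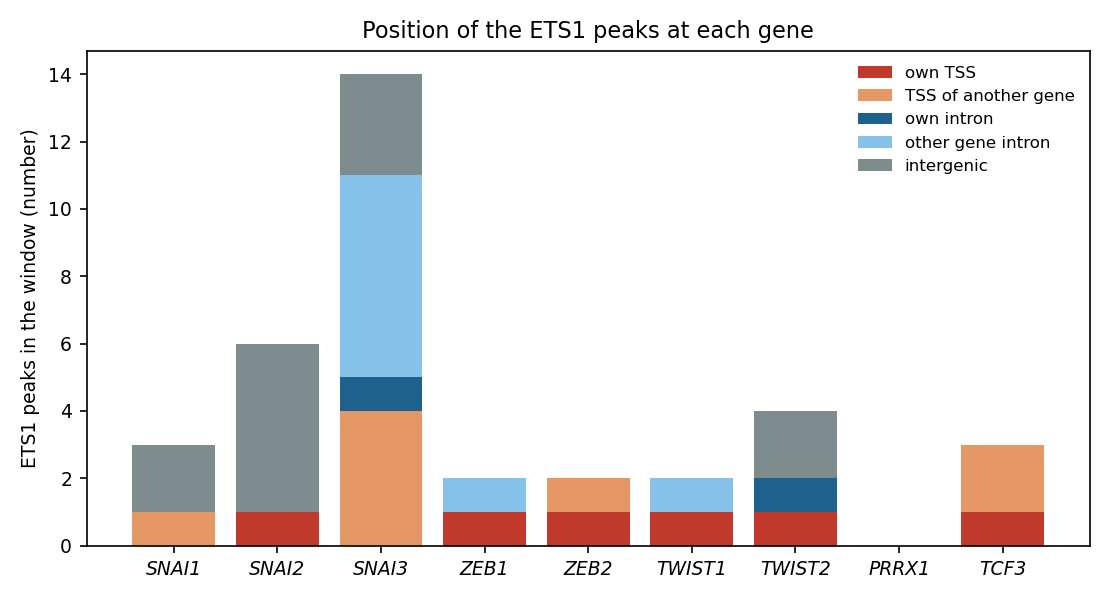
Number of ETS1 peaks in the window of each EMT factor (bars, from 0), divided by position into the gene's own TSS, the TSS of another gene, its own intron, an intron of another gene and intergenic sequence. SNAI3 has 14 peaks, of which 4 are at other TSSs and 6 in introns of PIEZO1, and 5 of the 6 SNAI2 peaks are intergenic.

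The promoters were then compared by base composition, because ETS1 peaks were far more common at CpG-rich starts. Over 1001 bp around the canonical TSS, a promoter was taken as CpG-rich if its GC content was at least 50% and its ratio of observed to expected CpG at least 0.6. Of 12922 protein-coding genes with a CpG-rich promoter 64.9% had a peak at the canonical TSS, and of the 6959 others 13.0% did (interval 12.2 to 13.8%). The EMT factors had 7 CpG-rich promoters, of which 5 had a peak, those of SNAI2, ZEB1, TWIST1, TWIST2 and TCF3. The CpG-rich promoters without a midpoint in reach were those of SNAI1 (GC content 69.7%, CpG ratio 0.802) and SNAI3 (68.6% and 0.732). The promoters of ZEB2 (49.4% and 0.525) and PRRX1 (56.7% and 0.584) missed the limits, and neither had a peak at the canonical TSS. TCF3 had the highest GC content, at 77.6%, and SNAI2 the lowest of the promoters with a peak, at 50.9%. Bias of sequencing with GC content was not tested here.

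**Figure D4:**
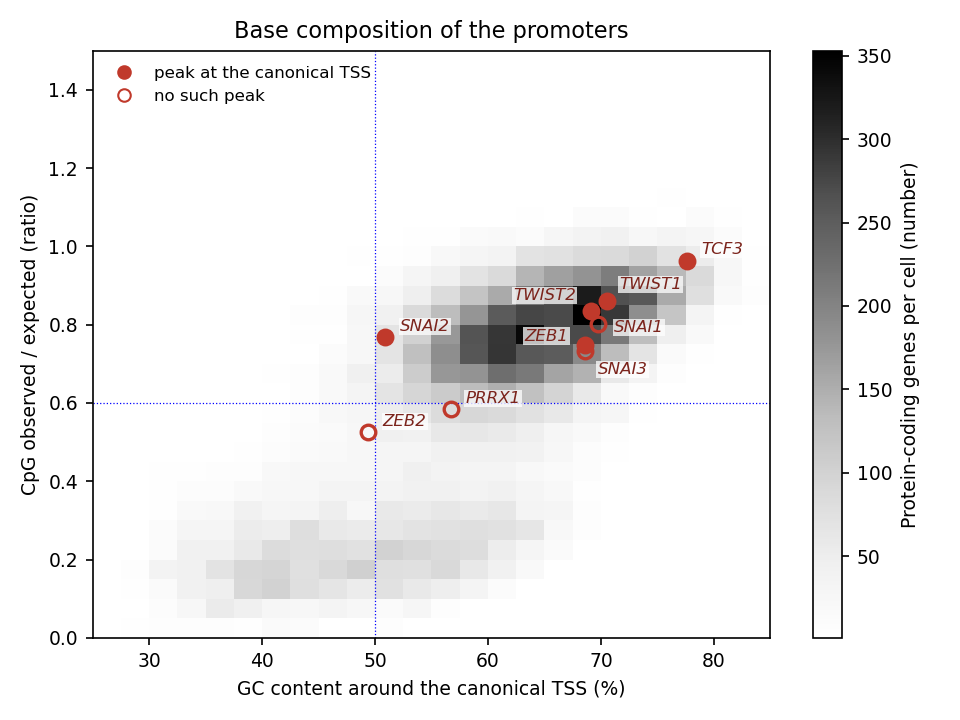
GC content in percent (horizontal axis) against the ratio of observed to expected CpG (vertical axis) over 1001 bp around the canonical TSS; grey cells give the number of protein-coding genes, filled red circles EMT factors with an ETS1 peak midpoint within 500 bp of the canonical TSS, open circles those without, and dotted lines the limits of 50% and 0.6. The 5 filled circles lie in the CpG-rich part of the plot together with SNAI1 and SNAI3, and ZEB2 and PRRX1 lie below the limit of 0.6.

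The number of ETS cores in a promoter did not separate the EMT factors with a peak from those without. The promoters of TWIST1 (8 cores), SNAI2 (7), PRRX1 (7) and SNAI1 (6) held the most, followed by ZEB2 (5), ZEB1 (4), TCF3 (4), TWIST2 (3) and SNAI3 (1), against a median of 3 for all protein-coding genes. PRRX1 and SNAI1, without a peak, thus had more cores than TWIST2, with one. In the 200 bp around the midpoint a core was present in 19 of the 36 peaks (52.8%, interval 37 to 68.0%) and in 55.4% of all nuclear peaks. Over the whole peak the shares were 33 of 36 (91.7%, interval 78.2 to 97.1%) and 94.5%. The median was 3.41 cores per kb at the EMT factors and 3.57 for all peaks. The letters CCGGAAGT, a longer form of the ETS site, occurred in 1 of the 36 peaks, that at SPATA2, and in 6.58% of all peaks.

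Other motifs were examined because SNAIL, ZEB and TWIST proteins bind E-boxes and because AP-1 is a partner of ETS proteins. Of the E-boxes only the form CAGGTG was examined. The AP-1 site TGANTCA was found in 14 of the 22 peaks away from TSSs (63.6%, interval 43.0 to 80.3%) and in 3 of the 14 at TSSs (21.4%, interval 7.57 to 47.6%), against 52.8% and 24.5% of all peaks of these kinds. The E-box CAGGTG, read on both strands and thus also as CACCTG, was present in 21 of the 22 peaks away from TSSs (95.5%, interval 78.2 to 99.2%) against 62.8% of all such peaks. It was present in 9 of the 14 at TSSs (64.3%, interval 38.8 to 83.7%) against 68.5%. The peaks away from TSSs were wider at the EMT factors, with a median of 1018 bp against 740 bp, and they had a higher GC content, with a median of 57.8% against 53.6%. Of these 22 peaks, 10 came from the SNAI3 window, with GC contents from 54.0% to 68.2%. Those of the other windows had 43.2% to 62.7%, so that the higher median rests largely on the SNAI3 locus. In the 200 bp around the midpoint, where width plays no part, the E-box was present in 7 of the 22 (31.8%, interval 16.4 to 52.7%) against 23.9% of all such peaks. The part of width and GC content in the result over whole peaks was not tested further.

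Widths are the other measurement that the list holds. The 36 peaks had a median width of 1172 bp (346 to 3022 bp), and all nuclear peaks one of 969 bp (quartiles 609 and 1462 bp). At the 6 own starts the median was 1596 bp, against 1262 bp for all peaks at TSSs. ZEB1 (3014 bp), TWIST1 (2251 bp) and TWIST2 (2023 bp) were above the upper quartile of all nuclear peaks, ZEB2 (1169 bp) and SNAI2 (1004 bp) were near the median, and TCF3 (868 bp) was below it. Peaks at TSSs are wider, with quartiles of 912 and 1719 bp. Against these, ZEB1, TWIST1 and TWIST2 were again above the upper quartile. ZEB2 and SNAI2 were below the median of TSS peaks, and TCF3 was below their lower quartile. The peaks of SNAI2 were of even width, from 560 to 1066 bp, whereas those of SNAI3 ranged from 346 to 3022 bp. Width depends on depth and on the calling of peaks as well as on the extent of binding, and heights were not analysed here.

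**Figure D5:**
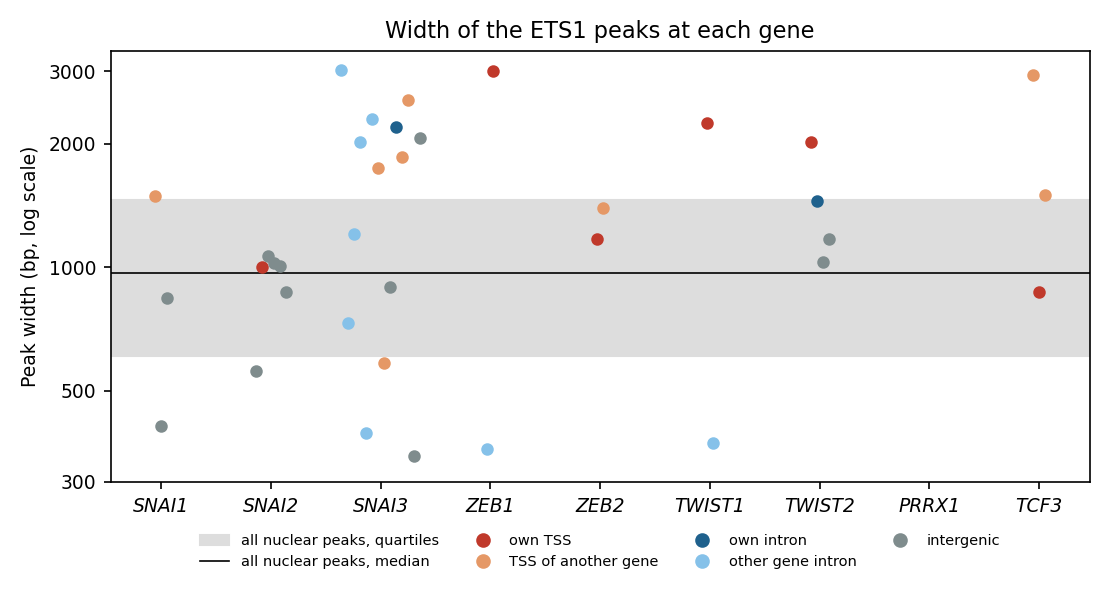
Width in bp (log scale) of each of the 36 ETS1 peaks, by EMT factor and coloured by position; the grey band spans the quartiles of all nuclear peaks (609 and 1462 bp) and the line is their median (969 bp). The promoter peaks of ZEB1, TWIST1 and TWIST2 stand above the band, while those of SNAI2, ZEB2 and TCF3 lie within it.

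SEs held 12 of the 36 peaks (33.3%, interval 20.2 to 49.7%) and 17.2% of all nuclear peaks. All 12 came from SNAI2 and SNAI3, with 6 each, and those of SNAI3 were in PIEZO1. At ZEB1, ZEB2, TWIST1, TWIST2, TCF3 and SNAI1 none of the peaks in the window was in an SE.

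Further genes of the EMT network were taken from 4 lists. Of 12 other EMT-inducing factors and E-proteins, 6 had a peak within 500 bp of any TSS, against 53.1% of protein-coding genes, but only 2 had it at the canonical TSS, against 46.1%. Their median density was 1.79 peaks per 100 kb. PRRX2, the homologue of PRRX1, had none at a TSS, although it had 23 peaks in its window, the most of this list. Among the 4 ID proteins, which bind E-proteins and block their dimers with bHLH factors, ID2 and ID3 had a peak at a TSS and ID1 and ID4 did not, with 1 of the 4 at the canonical TSS and a median density of 3.45. Of 19 corepressors and turnover factors of SNAIL, ZEB and TWIST proteins, 16 had a peak at a TSS, all but FBXL14, LOXL2 and USP17L2, and 13 had it at the canonical TSS, with a median density of 2.09. Many of these are expressed in most cells, and the list was not matched to the EMT factors in expression. Of 14 epithelial factors that oppose EMT, 11 had a peak at a TSS, all but ELF5, FOXA2 and GRHL1, and the median density was 2.35. With the canonical TSS alone the count was 7 of 14, close to the 46.1% of all protein-coding genes. GRHL3, a factor of epidermal differentiation, had the most peaks of that list, 28 in its window. The median density of the 9 EMT factors, 1.23, was below that of each of the 4 lists and below the 1.6 of all protein-coding genes.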

How the data were processed

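ETS1 ChIP-Seq of SCC25 cells comprised 3 samples (C20 antibody, 2 samples; 501A antibody, 1 sample). Per the labels and methods, the authors mapped reads to hg19 with Bowtie 1.1.1, dropping reads with more than a single locus, merged files with SAMtools 1.3, used MACS2 with merged input as the control, and took the consensus of the samples by IDR, which keeps peaks of reproducible rank. The deposited list holds only peak positions, in base pairs, pooled over the samples; narrow or weak sites and repeats can be missing from it.

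Positions were converted to 1-based. Genes, transcripts and TSSs came from GENCODE release 44 mapped to GRCh37, whose chromosome names and nuclear sequence match hg19, and 9 mitochondrial peaks were left out. Midpoints within 500 bp of a TSS were counted at that TSS, then exons, introns and intergenic sequence. SE positions were the 965 called by the authors from H3K27Ac with ROSE. No test between groups was possible, and shares have 95% Wilson intervals. The EMT factors and the lists were chosen with earlier results of these data known. Genes named are the EMT factors, the genes nearest their peaks, and those of the lists with most peaks or with none at a TSS; ID2 and ID3 were named besides, after their values were seen, and the names of the first list without a peak at a TSS are, apart from PRRX2, not reported here. The counting code was tested on simulated peaks. Tables were handled in Python 3.11.15 (pandas 2.3.3, numpy 2.4.6), sequence with pysam 0.24.0, intervals with scipy 1.17.1 and figures with matplotlib 3.10.9.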

Additional observations from a re-analysis of the deposited data

How the results depend on the processing

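The 36 peaks became 69 with a window of 200 kb and 18 with the first 13485 peaks of the list, the first part of it, and they were 22 without SNAI3. With those 13485 peaks, 3 of 9 EMT factors had a midpoint in the gene body in place of 6. The share of peaks with an ETS core rose from 52.8% to 77.8% in 600 bp (89.3% of all nuclear peaks), 91.7% over the whole peak and 86.1% for GGAA alone, since longer windows and shorter motifs match more often. In 600 bp the share, 28 of 36, was thus below that of all nuclear peaks, and this difference was not tested. Of 28 comparisons of the 6 main results with an alternative, these 7 moved and the other 21 kept within 1.5 times a count or within the interval of a share. Of 45 such comparisons of the counts per gene, 13 moved. With the first 13485 peaks SNAI3 fell from 14 to 5, level with SNAI2 at 5, TWIST2 from 4 to 2, TWIST1 and ZEB1 from 2 to 1 and ZEB2 from 2 to 0. Within 50 kb SNAI3 had 8, TCF3 1 and ZEB1 1, and within 200 kb SNAI3 had 23, SNAI1 14, TCF3 8, ZEB1 5 and PRRX1 1. EMT factors with a peak at a TSS numbered 4 to 7 over the settings. The order of the list is not documented, so its first part is not a known threshold. No paired analysis was possible because the list pools the samples, and for the same reason no sample could be left out.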

Other observations

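When the window was widened from 100 to 200 kb, SNAI1 gained 11 peaks, and its count rose from 3 to 14. Of the 11, 5 were at a TSS of another gene and 8 were in SEs downstream of SNAI1. Over the same distance SNAI3 gained 9 peaks, TCF3 gained 5, ZEB1 gained 3, TWIST2 gained 2, and SNAI2, ZEB2 and PRRX1 gained 1 each, while TWIST1 gained 0. Apart from those of SNAI1, none of these outer peaks was in an SE.

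The windows also hold the TSSs of 18 other protein-coding genes, 7 of which had a peak at a TSS (38.9%, interval 20.3 to 61.4%), an interval that includes the 53.1% of all protein-coding genes. The shares are not quite alike, since for these neighbours only TSSs and midpoints inside the window were counted. Of the 7 with a peak, 4 were neighbours of SNAI3. PIEZO1, with the nearest midpoint 563 bp from its TSS, was not among them.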
